A study of Mus musculus with 9 samples.

Results

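Complement was followed through 9 EL4 tumours in 3 rows: the rows of the deposited count table that were placed on C1qc, C4b and C5ar1, which make up 3 of 56923 rows. They were chosen because earlier results on these tumours had them higher in HVEM-KO than in Vec tumours, so their difference between the groups is given below as a description, without a test. The names are inferred. Many rows of this table do not hold the reads of the gene whose identifier they carry, and each name is that of the locus whose exons best account for the row totals. Vec and HVEM-KO are the genotypes the labels give to the EL4 cells that formed the tumours, with 5 Vec and 4 HVEM-KO libraries. EL4 cells come from a mouse lymphoma of T cells. HVEM, a receptor of the tumour necrosis factor receptor family, is encoded by Tnfrsf14. The labels give neither the strain, sex or age of the host nor the time of collection. They also do not say whether HVEM-KO is 1 clone, or whether libraries come from separate animals, and the spread below is that between libraries. The labels name the tissue as EL4 tumor and mention no sort, so a row can hold reads of the EL4 cells and of host cells in the tumour.

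Complement is a cascade of blood and tissue proteins that coats targets for uptake and calls in white blood cells. C1q starts the classical pathway by binding antibody on a surface or the surface of dying cells, and its 3 chains are products of C1qa, C1qb and C1qc, which macrophages of most tissues express together. C4, cut by a protease bound to C1q, supplies a part of the enzyme that cuts C3, and it is made by liver, fibroblasts and macrophages. C5a, a peptide released when C5 is cut, acts on C5ar1, a receptor on neutrophils, monocytes and macrophages. The rows thus stand for the sensor, a component that acts before C3 is cut, and a receptor at the end of the cascade.

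The promoters of C1qc and C5ar1 are shown because joint variation of these rows between tumours is described below. Both are the 250 bases before the transcription start on the minus strand, from RefSeq on GRCm38.p6, at chr4:136892915-136893164 and chr7:16259339-16259588. Another annotation, GENCODE vM21, starts these genes inside the windows, at 136893065 and 16259540. Most of each window thus lies within the gene by that annotation. Capitals mark the match to a searched motif, and C4b had no entry in the promoter table.
C1qc promoter: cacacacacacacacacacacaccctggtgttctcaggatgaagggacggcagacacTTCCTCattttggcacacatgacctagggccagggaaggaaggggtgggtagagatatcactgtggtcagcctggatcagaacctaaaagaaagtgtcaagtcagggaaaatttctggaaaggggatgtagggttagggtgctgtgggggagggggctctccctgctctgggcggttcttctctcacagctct
C5ar1 promoter: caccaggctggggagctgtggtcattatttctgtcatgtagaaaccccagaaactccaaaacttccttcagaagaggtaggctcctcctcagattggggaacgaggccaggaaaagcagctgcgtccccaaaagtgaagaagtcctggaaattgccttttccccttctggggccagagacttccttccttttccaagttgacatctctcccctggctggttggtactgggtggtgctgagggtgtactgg
The motifs were searched on both strands: the core bound by PU.1, a myeloid transcription factor (GAGGAA), the core of the interferon-stimulated response element, the gamma-activated site (TTCNNNGAA) and a TATA box core (TATAAA). The C1qc window held 1 match, the PU.1 core on the opposite strand, read as TTCCTC and starting 193 bases before the start. A PU.1 core is found in 23.3% of 32851 promoter windows of this length. The other motifs are in 2.98%, 7.02% and 12.4% of them, in the order given. The C5ar1 window held no match, which says only that these letters are not in it.

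The C1qc row carries the identifier ENSMUSG00000085833, which GENCODE vM21 annotates as Gm13003. It belongs to a stretch of 503 consecutive rows of chromosome 4 that the counts place at a displacement of -272650 bp (to lower coordinates). There, 842 bp of the row's 2904 bp of exons lie on exons of C1qc (chr4:136889804-136893065, GRCm38, minus strand), counted over all its annotated transcripts. Its protein-coding transcript of 1203 bp held only 114 bp of this overlap, all of it coding. That overlap was 326 bp with the stretch shifted by 250 bp to lower coordinates, and 185 bp with it shifted as far to higher ones. With the stretch shifted by 250 bp to lower coordinates, 6 bp also touched C1qb or C1qa, which lie next to C1qc. The row can therefore hold reads of a C1q neighbour. The log-likelihood gain of the stretch over counts explained by row length alone was 111.8 near the fitted displacement, -115.3 without one, and at most 51.8 at any displacement over 5000 bp away. On the grid of 250 bp steps alone the gain was highest at -273250 bp (114.89), and the finer steps of 50 bp gave the displacement of C1qc used here.

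The C4b row, ENSMUSG00000092618 (annotated as Btnl6), lies in a stretch of 1058 rows of chromosome 17 placed at a displacement of 219100 bp (to higher coordinates). It overlaps 589 bp of coding sequence in 8 exons, between exons 17 and 32 of the 41 of C4b (chr17:34728380-34743882, minus strand). C4a is a near-identical copy of C4b, and how reads shared by both were counted is not stated in what was used. The C5ar1 row, ENSMUSG00000101135 (annotated as Gm17981), lies in a stretch of 709 rows of chromosome 7 placed at a displacement of -266400 bp. All its 739 bp lie in exon 3 of 3 of C5ar1 (chr7:16246743-16259540, minus strand), 698 bp in coding sequence and 41 bp in the UTR. Gains were 300.2 against -304.3 without displacement for the C4b stretch, and 185.4 against -70.6 for that of C5ar1. The highest gains over 5000 bp away were 96.5 and 132.7.

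**Figure D1:**
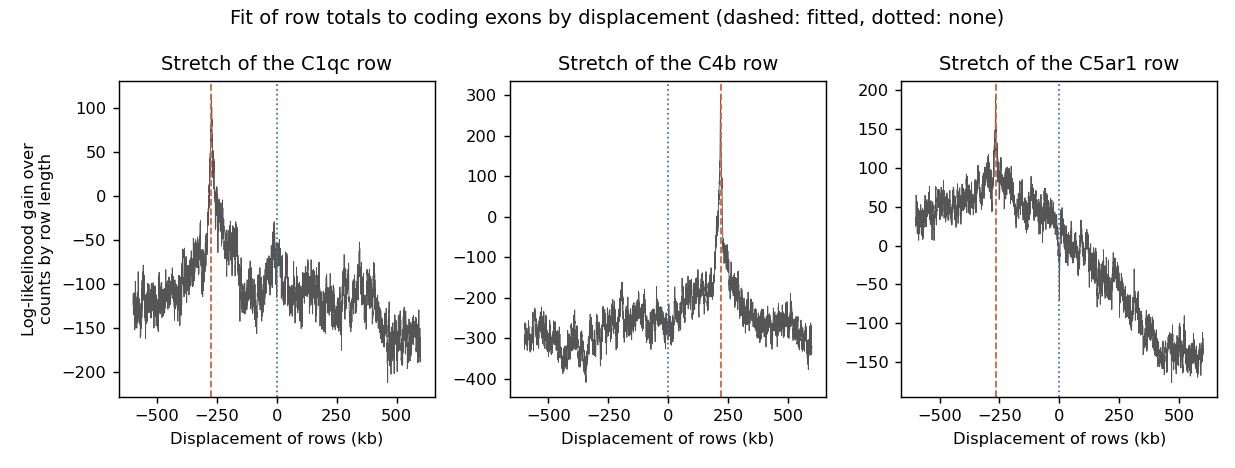
Log-likelihood gain of the stretch of each complement row (vertical axis) at each displacement of its rows along the chromosome (horizontal axis, kb). The gain is highest close to the fitted displacement (dashed line; gains of 111.8, 300.2 and 185.4 at the grid steps beside it) and below 0 without displacement (dotted line). For C1qc the highest plotted gain is 114.89, at -273250 bp.

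Across the 121 rows around each complement row, log overlap with exons of protein-coding genes was correlated with log count. The correlation for C1qc was 0.69 at the fitted displacement against 0.42 without it. For C4b it was 0.63 against 0.37, and for C5ar1 0.69 against 0.36. These correlations run across rows, which are not independent, and the displacement was chosen on the same counts. The rows deposited under the genes' own identifiers held few reads or were placed elsewhere. That of C1qc had 2 reads in all, that of C1qa 0 and that of C1qb 1, against 13204 in the row placed on C1qc. The row named C4b had 10634 reads and was placed on Hspa1b, a heat shock gene, and the row named C5ar1 had 177 reads.

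Total counts per library ran from 5532155 to 8205620, and 3 counts, the limit that a count of 0 allows, correspond to 0.376 to 0.521 CPM. Every pair of libraries differed by more than sampling noise (lowest chi-square per degree of freedom 12.8, Vec 1 and Vec 5). Vec 1 and Vec 5 stood apart from the others on the first dimension of a multidimensional scaling plot, which held 37.7% of the variance. They were at 1.36 and 1.5, and the other 7 libraries at -1.22 to 0.46, so results are also given without both. The targeted gene could not be checked: the row named Tnfrsf14 had 1 read, in Vec 5, and no row was placed on that gene.

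The C1qc row was at 171.6, 233.4, 97.1, 235.8 and 124.4 CPM (TMM-normalised counts scaled to library size) in Vec 1 to 5. In HVEM-KO 1 to 4 it was at 243.1, 385.8, 520.6 and 83.7 CPM. HVEM-KO 1, 2 and 3 were above every Vec tumour, and HVEM-KO 4 was the lowest of all 9, so the groups overlapped. The Vec mean was 172.5 ± 62.7 CPM (SD, n = 5) and the HVEM-KO mean 308.3 ± 187.8 CPM (SD, n = 4). The fitted log2 fold change, HVEM-KO over Vec, was 0.84 ± 0.42 (SE).

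The C4b row was at 74.8, 355.8, 146.3, 280.3 and 69.8 CPM in Vec 1 to 5, and at 270.5, 489.9, 637.7 and 166.5 CPM in HVEM-KO 1 to 4. Its 2 lowest values were those of Vec 1 and Vec 5. Only HVEM-KO 2 and 3 exceeded every Vec tumour. The means were 185.4 ± 127.6 CPM (SD, n = 5) and 391.1 ± 212.6 CPM (SD, n = 4), with a log2 fold change of 1.08 ± 0.50 (SE).

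The C5ar1 row, with the fewest reads (1743 in all, 96 to 354 per library), was at 12.2, 37.1, 15.4, 25.2 and 16.4 CPM in Vec 1 to 5. In HVEM-KO 1 to 4 it was at 52.2, 44.5, 58.2 and 18.8 CPM. As for C1qc, HVEM-KO 1, 2 and 3 were above all Vec tumours and HVEM-KO 4 lay among them. The means were 21.3 ± 10.1 CPM (SD, n = 5) and 43.4 ± 17.4 CPM (SD, n = 4), with a log2 fold change of 1.03 ± 0.36 (SE).

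**Figure D2:**
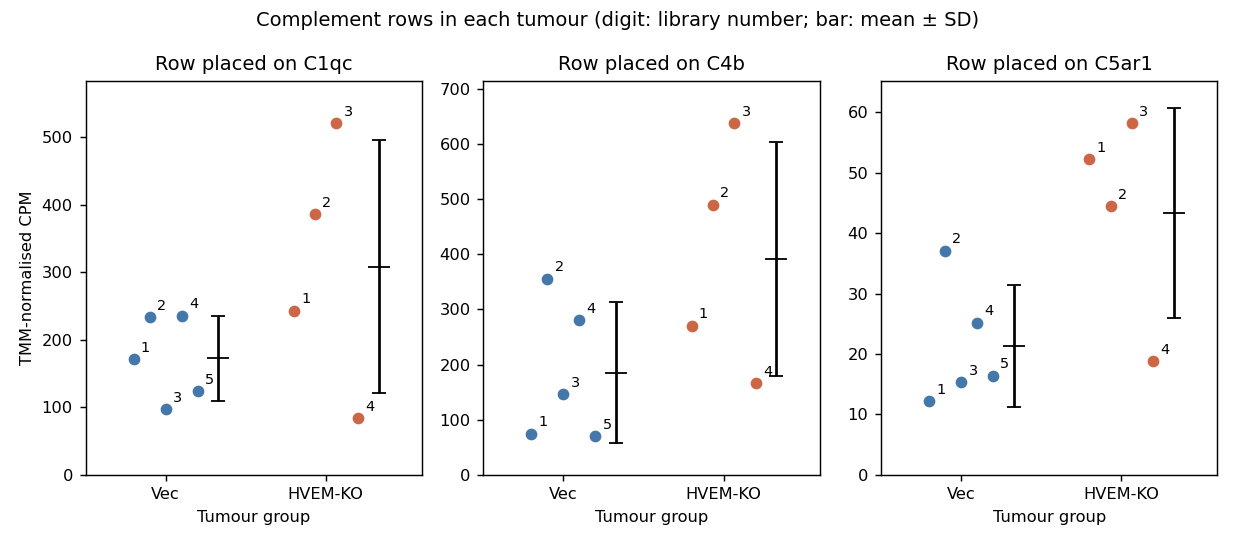
TMM-normalised CPM of the C1qc, C4b and C5ar1 rows (one panel each, linear axes from 0) in every Vec and HVEM-KO tumour. Points are libraries with their number, and the black bar is the mean with its SD; HVEM-KO 3 is highest in each panel (520.6, 637.7 and 58.2 CPM), and HVEM-KO 4 lies below every Vec tumour in the C1qc panel and among the Vec tumours in the other panels.

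For all 3 rows the groups overlapped, so 0 of 3 had every HVEM-KO tumour above every Vec tumour, against 1.16% of the 11521 tested rows (and 1.76% with every HVEM-KO tumour below). Taking each HVEM-KO tumour against each Vec tumour, the HVEM-KO tumour was higher in 15 of 20 pairs for C1qc, 16 of 20 for C4b and 18 of 20 for C5ar1. At an adjusted p under 0.05 by edgeR, 0% of the tested rows differed between the groups (0 of 11521). Without adjustment 1226 rows (10.6%) had a p under 0.05. DESeq2 called 81 rows (0.703%), limma voom 0, and edgeR without a filter on low counts 307 of 28852 (1.06%). The median log2 fold change of all tested rows was 0.01. Since the complement rows were picked from this contrast, nothing is read from where they stand in it.

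All 3 rows varied more between tumours of 1 group than most rows did. The within-group SD of log2 CPM was 0.87 for C1qc, 0.99 for C4b and 0.68 for C5ar1, against a median of 0.37 over the tested rows. These SDs were above those of 93.5%, 96.5% and 84.6% of the tested rows. From the lowest to the highest tumour the rows spanned 6.22-fold, 9.13-fold and 4.79-fold. The difference between the groups made up 14.6% of the variance of log2 CPM for C1qc, 31.7% for C4b and 41.6% for C5ar1. For the median tested row it made up 11.7%. The rows were chosen for this difference, which favours a share above that of the median row, so nothing is read from the comparison.

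Single tumours moved the fold changes. Without HVEM-KO 3, the highest tumour in each row, the log2 fold change was 0.46 for C1qc, 0.74 for C4b and 0.86 for C5ar1. Without HVEM-KO 4 it was 1.15, 1.33 and 1.28. Leaving out Vec 2 gave 1.46 for C4b and 1.33 for C5ar1, the highest values for these rows. Without Vec 1 and Vec 5 together, the values were 0.70 for C1qc, 0.58 for C4b and 0.75 for C5ar1. The direction was the same in every one of these fits.

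**Figure D3:**
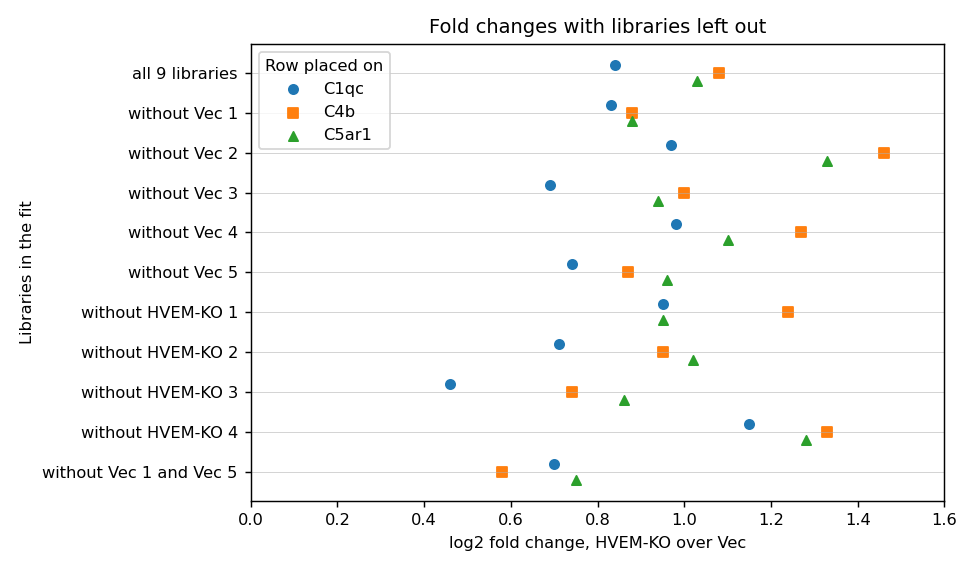
log2 fold change, HVEM-KO over Vec (horizontal axis), of the 3 complement rows with all 9 libraries, with each library left out and without Vec 1 and Vec 5 (vertical axis). All values are above 0, from 0.46 (C1qc without HVEM-KO 3) to 1.46 (C4b without Vec 2).

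The same 5 tumours were highest for all 3 rows: Vec 2, Vec 4 and HVEM-KO 1, 2 and 3. Vec 1, Vec 3, Vec 5 and HVEM-KO 4 were the 4 lowest. For C1qc, the highest of these 4 had 171.6 CPM and the lowest of the 5 had 233.4 CPM. For C4b the corresponding values were 166.5 and 270.5 CPM, and for C5ar1 18.8 and 25.2 CPM. This split was noticed after the values were seen. It is shared by 786 of the 11521 tested rows (6.82%). The complement rows were chosen as higher in HVEM-KO, which favours HVEM-KO tumours among their highest, so this share is no measure for them.

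Whether the rows vary together was tested within the groups, on deviations of log2 CPM from the group means. The rows were chosen for the difference between the groups. Whether that choice also drew on the spread within them is not known. Over the 9 libraries, Pearson's r was 0.74 between C1qc and C4b, 0.81 between C1qc and C5ar1, and 0.85 between C4b and C5ar1. An exact permutation test within groups (two-sided, 2880 permutations) gave p = 0.0215, 0.0222 and 0.00729, and adjusted over the 3 pairs 0.0222, 0.0222 and 0.0219. Spearman's rho was 0.73, 0.66 and 0.76, with exact permutation p = 0.0257, 0.0813 and 0.0299 (adjusted 0.0448, 0.0813 and 0.0448). The C1qc and C5ar1 pair thus passed by r and not by rho. Within the 5 Vec tumours alone r was 0.63, 0.68 and 0.90, and within the 4 HVEM-KO tumours 0.97, 0.92 and 0.81.

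**Figure D4:**
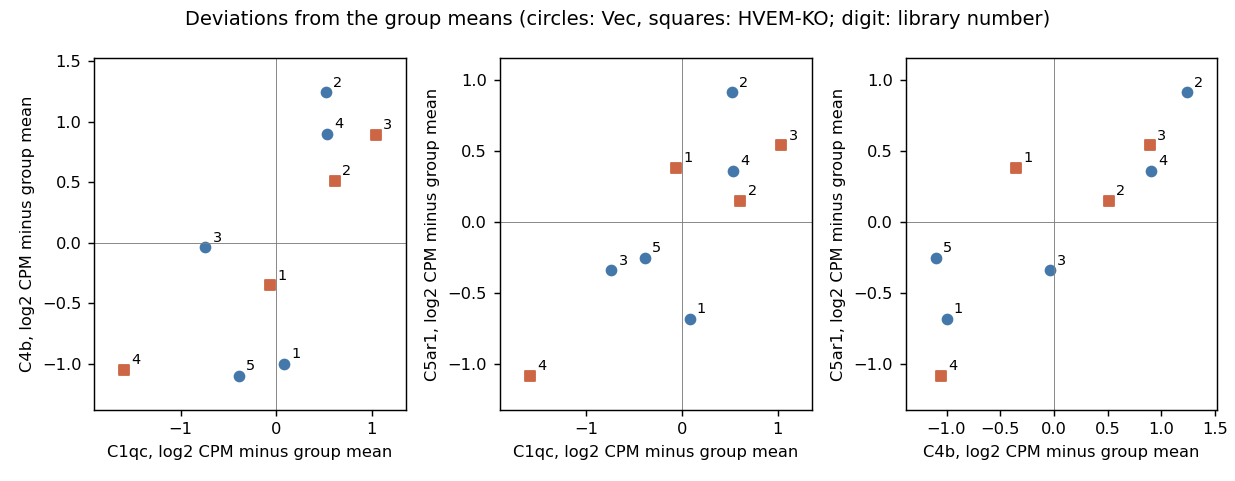
log2 CPM minus the group mean of one complement row against another, for the 3 pairs of rows (circles, Vec; squares, HVEM-KO; digits, library numbers). HVEM-KO 4 lies low on both axes of each panel, Vec 2, Vec 4, HVEM-KO 2 and HVEM-KO 3 lie above the group mean in both rows, and r is 0.74, 0.81 and 0.85 from left to right.

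With 1 tumour left out, r stayed above 0 for every pair, and several pairs no longer passed with 8 libraries. Without HVEM-KO 4, r was 0.69 for C1qc and C4b, 0.58 for C1qc and C5ar1 and 0.82 for C4b and C5ar1, and the adjusted exact permutation p was 0.16, 0.188 and 0.146. In the same order of pairs, r was 0.68, 0.78 and 0.82 without HVEM-KO 3 (adjusted exact permutation p = 0.0667 each). Without Vec 2 it was 0.74, 0.83 and 0.78 (adjusted exact permutation p = 0.0556 each), and without HVEM-KO 2 0.72, 0.82 and 0.85 (0.0556, 0.0542 and 0.0542). No pair passed in these 4 sets of 8 libraries. Without HVEM-KO 1, C1qc and C4b no longer passed (r = 0.74, adjusted exact permutation p = 0.0528). With the 2 libraries farthest from the median of C1qc left out, HVEM-KO 3 and HVEM-KO 4, r was 0.66 with C4b and 0.57 with C5ar1 (adjusted exact permutation p = 0.258 for both), and neither passed with the 7 libraries left. Leaving out the 2 farthest for C4b, Vec 2 and Vec 5, kept r at 0.85 with C5ar1 (adjusted exact permutation p = 0.0834). Without Vec 1 and Vec 5, r was 0.97, 0.91 and 0.86, and the adjusted exact permutation p was 0.0417 for each pair.

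C4b and C1qc parted in Vec 1 and Vec 5. The ratio of reads in the C4b row to those in the C1qc row was 0.436 in Vec 1 and 0.561 in Vec 5, and 1.11 to 1.99 in the other 7 tumours. The ratio of the C5ar1 to the C1qc row ran from 0.0709 in Vec 1 to 0.224 in HVEM-KO 4. These ratios depend on how much of each gene a row covers, so only their change between tumours can be read.

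Of 50 complement genes in the lists examined, 11 had a placed row, and 8 of these were tested, the 3 rows above among them; Hc, C4bp and Csmd1 had too few reads. The other 5 were all higher in HVEM-KO, as were 52% of all tested rows, none passed, and their median log2 fold change was 0.58. Without Vec 1 and Vec 5, 4 of 5 were higher and the median was 0.20. C1qa, C1qb, the C1q-bound proteases and the receptors C3ar1, Itgam and Itgb2 had no placed row and are not described.

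C3, the protein on which all pathways of complement meet, had a Vec mean of 304.3 ± 173.2 CPM (SD, n = 5) and an HVEM-KO mean of 563.1 ± 154.7 CPM (SD, n = 4). Its log2 fold change was 0.89 ± 0.35 (SE; edgeR adjusted p = 0.426). Cfp, properdin, which stabilises the enzyme of the alternative pathway, was at 202.2 ± 43.3 and 261.8 ± 100.2 CPM (log2 fold change 0.37 ± 0.25 SE, edgeR adjusted p = 0.571). Colec12, a scavenger receptor with a collectin domain, stood in the row of its own identifier, at 53.1 ± 31.2 and 70.2 ± 38.7 CPM. Its log2 fold change of 0.40 ± 0.46 (SE; edgeR adjusted p = 0.747) turned to -0.05 without Vec 1 and Vec 5. Without both, C3 was at 0.48 and Cfp at 0.20.

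Serping1, the C1 inhibitor, was at 248.7 ± 169.5 and 370.7 ± 182.0 CPM (log2 fold change 0.58 ± 0.49 SE, edgeR adjusted p = 0.66). Its log2 fold change was 0.30 without HVEM-KO 3, 0.98 without Vec 2 and 0.05 without Vec 1 and Vec 5. Itgax, a chain of complement receptor 4 and a marker of dendritic cells and some macrophages, was at 20.7 ± 9.09 and 40.7 ± 15.3 CPM. Its log2 fold change was 0.98 ± 0.33 (SE; edgeR adjusted p = 0.393, and 0.00246 without a filter on low counts, the lowest of its alternatives, which reached 0.793), and 0.65 without Vec 1 and Vec 5. Deviations of these 5 rows from the group means followed those of C4b closely, with r of 0.98 for Colec12, 0.96 for C3, 0.86 for Cfp, 0.95 for Serping1 and 0.97 for Itgax over the 9 libraries. With C1qc the values were lower for 4 of the 5 rows and 0.87 for Cfp, down to 0.51 for Serping1. These r are a description of single rows in libraries that share depth and scaling. The 5 highest tumours of the C1qc, C4b and C5ar1 rows were also those of Cfp and Itgax, and not those of Colec12, C3 and Serping1.

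Markers of several host cell types varied with the complement rows. Only part of each list could be read, because a marker needs a placed row, and the part of other cells in the results above was not tested. Fewer cells of a type and less RNA per cell cannot be told apart in bulk RNA. None of the markers below passed the test between groups. Relations of the lists to the complement rows were added after the values were seen, so their permutation p-values are a description. Each p is set against no correlation, and other genes also vary with these rows. Of 3066 named genes, 124 had r of at least 0.9 with the mean deviation of the complement rows. How often sets of other genes reach the r of a list was not tested. No link to a cell type is read from these p-values.

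Macrophages are the best known source of C1q. Of 20 macrophage markers, 4 were tested: Mrc1, Mertk and Cd163 were higher in HVEM-KO and Gpnmb lower (median log2 fold change 0.71), and the summed level was 293.7 to 560.3 CPM over the Vec tumours and 153.1 to 502.3 CPM over the HVEM-KO tumours. Mrc1, which encodes the macrophage mannose receptor, had 11.7, 12.8, 10.3, 12.6 and 8.39 CPM in Vec 1 to 5 and 21.5, 19.1, 34.4 and 6.31 CPM in HVEM-KO 1 to 4, and its deviations had r = 0.90 with C1qc. Gpnmb, a lysosomal protein with most of the list's reads, was at 430.6 ± 128.5 and 375.1 ± 169.0 CPM and had r = 0.01 with C1qc. Cd163 had 178 reads in all and was near the floor in Vec 1 (0.627 CPM) and HVEM-KO 4 (0.664 CPM), and Mertk had 221 reads. The rows of Mertk and Gpnmb overlapped their genes by only 174 and 120 bp. All 4 markers weigh alike in the mean below. The mean log2 CPM of the 4 markers had r = 0.80 and rho = 0.80 with C1qc over 9 libraries (exact permutation, adjusted over 36 relations of lists and rows, p = 0.0637 and 0.0665). Without HVEM-KO 3 and HVEM-KO 4, the farthest from the median, r was 0.46. With C4b, which macrophages also make, the same list had r = 0.89 and rho = 0.90 (adjusted exact permutation p = 0.0125 and 0.0187), and r = 0.94 without those libraries. With C5ar1 it had r = 0.78 and rho = 0.85 (adjusted exact permutation p = 0.0434 and 0.0409), and r = 0.64 without them.

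Fibroblasts are another known source of C4. Of 18 fibroblast and matrix genes, 10 were tested, 8 higher and 2 lower in HVEM-KO (Postn and Thy1), with a median log2 fold change of 0.63 and a summed level of 5598.7 to 16101.6 CPM over the Vec tumours and 6193.3 to 19585.7 CPM over the HVEM-KO tumours. Thy1 is also expressed by T cells and was counted in both lists. Col1a2, a chain of type I collagen, was at 1687.0, 6530.0, 2707.7, 4871.3 and 2169.3 CPM in Vec 1 to 5 and at 5811.1, 7753.1, 9912.0 and 2052.0 CPM in HVEM-KO 1 to 4. Its 5 highest tumours are those of the complement rows. Counting Col1a2, these 5 were highest for 6 of the 10 tested fibroblast and matrix genes. They were highest for 3 of 4 endothelial, 3 of 4 CD8 and natural killer cell and 2 of 4 macrophage markers. For monocyte and neutrophil markers it was 0 of 4, and for T cell markers 0 of 5. Fibroblast markers and C4b had r = 0.98 and rho = 0.93 (adjusted exact permutation p = 0.00833 and 0.0187), and r = 0.98 without Vec 2 and HVEM-KO 4, the farthest from the median. With C5ar1 the same list had r = 0.90 and rho = 0.88 (adjusted exact permutation p = 0.0234 and 0.032), and r = 0.73 without those libraries. With C1qc it had r = 0.81 and rho = 0.76 (adjusted exact permutation p = 0.0368 and 0.0665), and r = 0.60 without them.

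All 4 tested endothelial markers of 13 were higher in HVEM-KO (Pecam1, Tie1, Vwf and Tek; median log2 fold change 0.75), with a summed level of 37.2 to 81.9 CPM over the Vec tumours and 58.6 to 114.5 CPM over the HVEM-KO tumours. Emcn, also placed, had under 10 reads. The list had r = 0.92 and rho = 0.87 with C5ar1 (adjusted exact permutation p = 0.0234 and 0.032), and r = 0.62 without HVEM-KO 4 and Vec 2. With C1qc it had r = 0.87 and rho = 0.85 (adjusted exact permutation p = 0.0238 and 0.0447), and r = 0.70 without those libraries. With C4b it had r = 0.78 and rho = 0.74 (adjusted exact permutation p = 0.0368 and 0.067), and r = 0.51 without them. Pecam1, an adhesion protein of endothelium and the list member with most reads, was at 31.2 ± 10.7 and 38.5 ± 7.22 CPM and had r = -0.01 with C5ar1, 0.10 with C1qc and -0.36 with C4b. Monocyte and neutrophil markers, from cells known to carry C5ar1, were tested for 4 of 18: Csf3r, Plac8 and Padi4 were higher and Fpr1 lower (median 0.73). Their summed level was 99.3 to 226.3 CPM over the Vec tumours and 175.8 to 383.6 CPM over the HVEM-KO tumours. They had r = 0.60 and rho = 0.58 with C5ar1 (adjusted exact permutation p = 0.118 and 0.15), and r = 0.51 without Vec 2 and Vec 5. With C4b they had r = 0.84 and rho = 0.83 (adjusted exact permutation p = 0.0318 and 0.0665), and r = 0.75 without those libraries. With C1qc they had r = 0.35 and rho = 0.32 (adjusted exact permutation p = 0.246 and 0.38). Padi4, an enzyme of neutrophils, had r = 0.05 with C5ar1 and Csf3r, a growth factor receptor of neutrophils, r = 0.75.

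Markers of T cells, which EL4 cells also express, were read in every tumour, with Lat, an adaptor of the T cell receptor, at 787.7 to 2143.9 CPM and Lck, a kinase of the same pathway, at 281.4 to 604.5 CPM. Of 17, 5 were tested, 1 higher (Cd3e) and 4 lower (Lck, Zap70, Lat and Thy1) in HVEM-KO, with a median log2 fold change of -0.44. Their summed level was 2843.9 to 5708.7 CPM over the Vec tumours and 2391.6 to 3607.6 CPM over the HVEM-KO tumours. With C4b the list had r = -0.66 and rho = -0.71 (adjusted exact permutation p = 0.12 and 0.103), and r = -0.26 without Vec 2 and Vec 5. For C1qc it had r = -0.26 and rho = -0.29 (adjusted exact permutation p = 0.499 and 0.484), and r = -0.01 without those libraries. For C5ar1 it had r = -0.53 and rho = -0.58 (adjusted exact permutation p = 0.178 and 0.156), and r = -0.26 without them. Of 14 CD8 and natural killer cell markers 4 were tested, 3 higher (Cd8b1, Klrd1 and Klrc1) and 1 lower (Gzmm), with a median of 0.80, at 14.0 to 30.2 CPM over the Vec tumours and 23.7 to 41.8 CPM over the HVEM-KO tumours. With C1qc this list had r = 0.78 and rho = 0.81 (adjusted exact permutation p = 0.0261 and 0.032), and r = 0.79 without Vec 5 and HVEM-KO 4. With C4b it had r = 0.80 and rho = 0.92 (adjusted exact permutation p = 0.0518 and 0.032), and r = 0.60 without those libraries. With C5ar1 it had r = 0.73 and rho = 0.68 (adjusted exact permutation p = 0.0642 and 0.101), and r = 0.70 without them. The markers of this list were not alike: r with C1qc was 0.92 for Cd8b1, 0.74 for Klrc1, 0.43 for Klrd1 and -0.27 for Gzmm. Klrd1 had 914 reads in all, Cd8b1 251, Gzmm 229 and Klrc1 174. The Cd8b1 row overlapped its gene by only 127 bp, and Klrc1 in Vec 5 (0.342 CPM) was below the floor of that library (0.513 CPM). Pax5, the 1 tested of 9 B cell markers, had a log2 fold change of -0.09, and Hbb-bs, the 1 tested of 7 red blood cell genes, -0.10. No dendritic cell marker of 10 was tested.

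**Figure D5:**
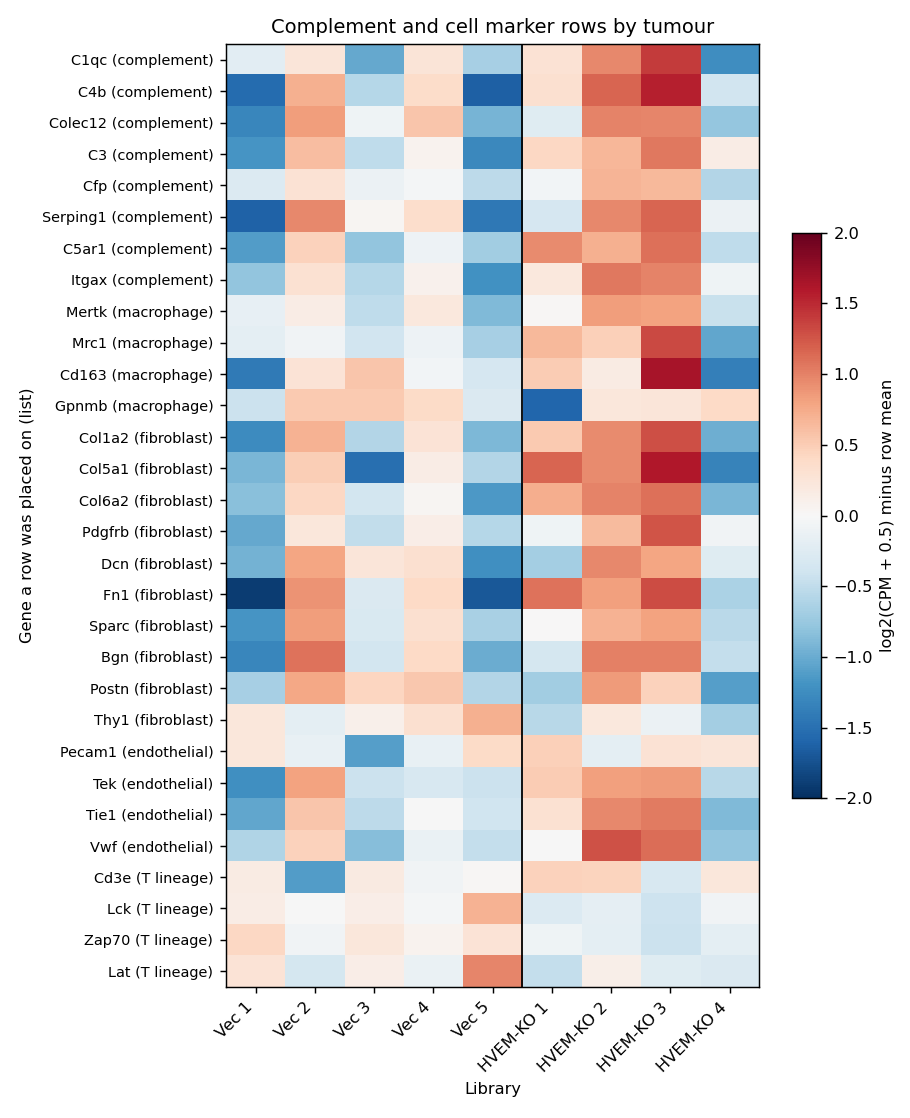
log2(CPM + 0.5) minus the row mean (colour, from -2 to 2) for the tested complement, macrophage, fibroblast, endothelial and T lineage rows (vertical axis) in the 9 libraries (horizontal axis; the black line parts Vec from HVEM-KO). The C4b, C3 and Col1a2 rows are low in Vec 1 and Vec 5 and high in HVEM-KO 2 and HVEM-KO 3, and the Lck and Zap70 rows have little contrast.

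The genes most like the complement rows were sought among 3066 named genes with a placed and tested row, by r between their deviations and the mean deviation of the 3 rows over 9 libraries. The median r was 0.05, and 124 genes had r of at least 0.9. The 5 highest were Amotl2 (r = 0.992), Rusc2 (0.986), Col1a2 (0.985), Slc41a2 (0.981) and Ece1 (0.979). Amotl2, an angiomotin family protein of cell junctions, was at 3.26, 9.72, 3.0, 8.09 and 2.91 CPM in Vec 1 to 5 and at 11.2, 15.8, 22.5 and 2.99 CPM in HVEM-KO 1 to 4. Its 5 highest tumours were those of the complement rows. Ece1, the protease that makes endothelin, had log2 fold change 0.75 ± 0.25 (SE; edgeR adjusted p = 0.393). Among the complement genes, Itgax ranked 87, Colec12 108, Cfp 111, C3 239 and Serping1 376 in this list of likeness.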

How the data were processed

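RNA sequencing of 9 tumours was used as the authors deposited it, as 1 table of raw counts per gene. The submitters' processing notes name mm10 as the build. Nothing used here states the aligner, counter or annotation. Libraries were numbered in accession order. The members and lists were chosen with earlier results of these data known.

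Each row's locus was inferred from row totals: GRCm38 exons (GENCODE vM21) were moved by up to 2000000 bp in steps of 250 bp, then 50 bp, and a hidden Markov model (switch penalty 20) chose displacements constant over 111 stretches. A row was placed when the posterior reached 0.99 and a single gene held 100 bp or more, and 90% or more of the overlap with coding genes, also after a shift of 250 bp. This placed 6161 rows with 34.0% of the reads. Simulated displacements were recovered within 1000 bp for 98.0% of 9234 rows, which tests the search and not the real placements.

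Rows were tested with edgeR 4.0.16 (R 4.3.3; TMM, filterByExpr, robust quasi-likelihood F test, Benjamini-Hochberg over 11521 rows, threshold 0.05). DESeq2 1.42.0 and limma 3.58.1 were alternatives, as were other scalings and filters and leaving libraries out. Log2 CPM had a prior count of 2. Named are the complement rows, tested complement genes, up to 4 markers per list with most reads (others after their values were seen) and the 5 most alike genes. Relations of marker lists to the complement rows were added after the values were seen. Reads are not counted by molecule, so the floor of 3 counts covers counting error only. A listed marker is not reported here and entered no list value.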

Additional observations from a re-analysis of the deposited data

Results flagged for a closer look

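Among 74 groups of 4 or 5 values examined for 1 sample far from the others, 3 had one, and chance gives about 1 in 20, or 3.7. None was a complement row. Gpnmb in HVEM-KO 1 was at 124.2 CPM against 439.8 to 492.8 CPM in the other HVEM-KO tumours, a gap of 0.856 of the range. Tek in Vec 2 was at 7.12 CPM against 1.38 to 3.0 CPM in the other Vec tumours (0.718 of the range). Lck in Vec 5 was at 604.5 CPM against 362.7 to 414.6 CPM (0.785 of the range).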

How the results depend on the processing

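No paired analysis was possible because the labels link no Vec library to an HVEM-KO library. The fold changes of the 3 complement rows kept their direction under all 16 alternatives each, from 0.46 to 1.15 for C1qc, 0.58 to 1.46 for C4b and 0.75 to 1.33 for C5ar1. No other row was placed on these genes, so that alternative gave no value. The number of changed rows, 0 by edgeR, was 81 with DESeq2 and 307 of 28852 without a filter on low counts, and 0 to 1 with 1 library left out; the cause was not tested. Found by deposited name, 11 of 17 other complement genes were higher (median 0.29, against 0.58), and 1 placed gene (Itgax) passed without the filter. With 1 library left out, r ranged from 0.68 to 0.84 for C1qc and C4b, 0.58 to 0.91 for C1qc and C5ar1, and 0.78 to 0.92 for C4b and C5ar1. By Spearman's correlation the C1qc and C5ar1 pair had 0.66. Without the 2 farthest libraries r was 0.66, 0.57 and 0.85, no longer past the threshold, with fewer samples. The names rest on inferred loci, and 9 libraries of unknown origin limit every comparison.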
